A study of Rattus norvegicus with 58 samples.

Results

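The step from early sarcopenic to sarcopenic gastrocnemius was followed in 19 RNA-seq libraries, 10 from rats of 18 months and 9 from rats of 24 months, out of 58 libraries in the series. The libraries were taken by their labels for muscle and age, and no measured value entered the choice. All were made from polyA RNA of whole gastrocnemius, a hindlimb muscle, of male Wistar rats with no treatment named in the labels. The study compared this muscle with triceps brachii, a forelimb muscle, of the same rats at 8 months (adult), 18 months (early sarcopenic) and 24 months (sarcopenic), to ask what accompanies the loss of hindlimb muscle with age. Each rat gave a single time point, so the steps compare different rats. The question here is which genes changed in the late step, from 18 to 24 months, and which of those had not yet changed in the early step, from 8 to 18 months.

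Gastrocnemius of the rat is built mostly of fast fibres, which contract with fast isoforms of the contractile proteins and draw on glycogen and glycolysis for quick supply of ATP. Fibres that lose their nerve raise genes for acetylcholine receptors and for growth arrest, and can be innervated again or waste. Sarcopenia is the loss of muscle mass and force with age, and in these rats the hindlimb loses more muscle than the forelimb.

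Read totals ran from 12767191 to 32351192 at 18 months and from 15064285 to 72297573 at 24 months. Values are given as CPM, the reads of a gene relative to the library total after TMM scaling, which sets the libraries to a common centre, and a log2 fold change of the late step is 24 minus 18 months. Of 32545 genes in the table, 14947 had enough reads to be tested, and their median log2 fold change was 0.01 in the late and 0.01 in the early step. Symbols were available for a list of genes which the study had picked on these same libraries for an age change that differed between the muscles. The counts for named genes and lists are therefore not independent evidence of their direction. Among these genes, 495 (22.9%) were higher and 864 (39.9%) lower at 24 months at an adjusted p under 0.05, with a median log2 fold change of -0.21. In the early step 293 (13.5%) of them were higher and 117 (5.41%) lower, with a median of -0.09. List counts are to be read against the shares of the same step.

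Some rats stood apart. On the first principal component of the gastrocnemius libraries, which held 31.5% of the variance, early sarcopenic rats ran from -29.6 to 32.9 (rat 20) and sarcopenic rats from 4.44 (rat 47) to 64.3. On the second component rats 14 and 17 of 18 months lay far from the others of that age (71.9 and 46.4). Among the 401 genes regulated in the late step, rat 47 was the 24-month rat nearest to the 18-month level in 215 (53.6%), and rat 20 was the 18-month rat nearest to the 24-month level in 144 (35.9%). Without rat 47 the number regulated was 496, without rat 20 it was 506 and without rats 14 and 17 it was 293. The 6 skeletal muscle markers with a symbol summed to 10450 to 29867 CPM at 18 and 4175 to 14435 CPM at 24 months, and 5 of 6 were lower. All of them but Ckmt2 are also among the fast-fibre genes described below, so the marker sum is no separate evidence. Of the markers for macrophages and other leukocytes 5 of 6 were higher (33.2 to 64.2 CPM in sum at 18 and 47.7 to 93.0 at 24 months), as were 4 of 5 for lymphocytes (7.54 to 15.3 and 12.9 to 33.7 CPM), 2 of 5 for fibroblasts (592 to 2230.3 and 1363 to 3258 CPM) and both for satellite cells. The remaining lymphocyte marker, Foxp3, went the other way and was lower by 1.62 on the log2 scale. The Schwann cell marker Cnp, the only nerve marker with a symbol, was higher by 1.05 on the log2 scale (23.0 to 54.6 and 43.6 to 117 CPM). Of the endothelial markers 1 of 9 was lower, or 6 of 9 without rats 14 and 17, and both mast cell and both blood markers missed the threshold. No marker with a symbol was at 0 throughout, and fat markers had no symbol. In bulk tissue, fewer cells of a type and less RNA per cell cannot be told apart, and the part of cell composition in the results below was not tested.

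In the late step 261 genes rose (1.75% of genes tested) and 140 fell (0.937%) by more than 2-fold at an adjusted p under 0.05, by edgeR's quasi-likelihood test with Benjamini-Hochberg adjustment. These 401 genes are called regulated. With no limit on the fold, 1316 genes rose (8.80%) and 1793 fell (12.0%). In the early step 510 genes rose (3.41%) and 183 fell (1.22%) at the same adjusted p with no limit on the fold.

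The 401 genes were sorted by what they had done from 8 to 18 months. For 70 genes, 68 of them rises, the early change had passed the test in the same direction. For 8 genes, 7 of them falls, it had passed in the opposite direction. For 132 genes the early change had missed the test and its 95% interval lay within 2-fold either way. Bounded does not mean unchanged, as some intervals left out 0, among them those of Mylk2 (log2 -0.88 to -0.20) and Cntn2 (0.03 to 0.94). Of these 132 genes, 48 rose (0.321% of genes tested) and 84 fell (0.562%) in the late step. For the other 191 genes, 144 of them rises, the early interval was too wide to place them. The 18-month libraries enter both steps, so the classes describe the course of each gene and are no independent comparison of the steps. Rises made up most of the genes whose early change had passed the test, and falls most of those bounded within 2-fold. A bounded change needs a narrow early interval, and most genes that could not be placed were rises. The share of falls in the bounded class is therefore no measure of when rises and falls took place.

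**Figure D1:**
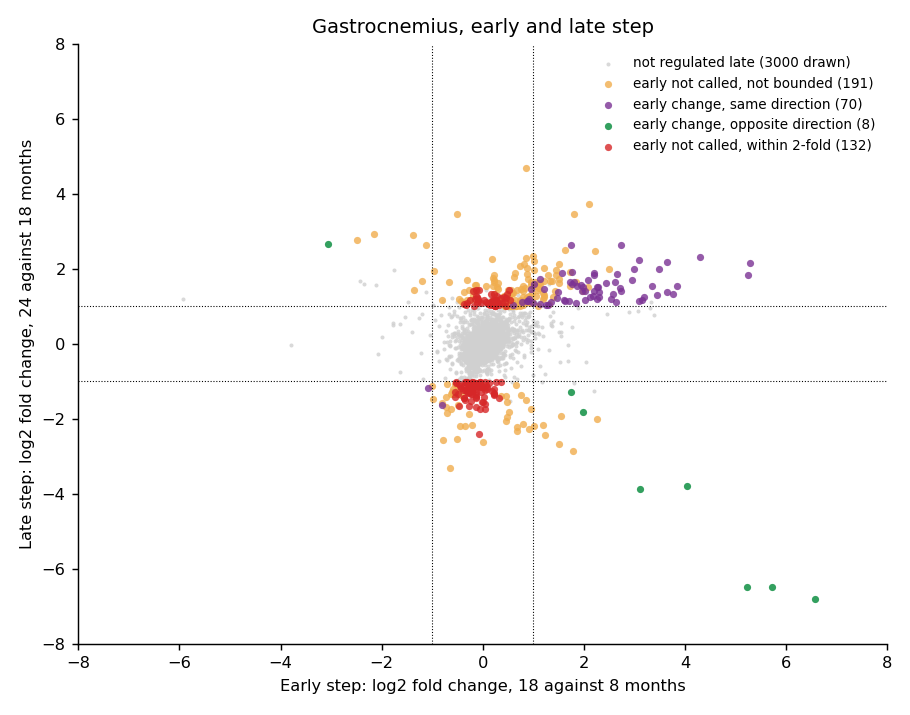
Fitted log2 fold change from 8 to 18 months (x axis) against that from 18 to 24 months (y axis) in gastrocnemius, 1 point per gene, for the 401 regulated genes coloured by class and 3000 genes that were not regulated in grey; dotted lines mark a 2-fold change. The 132 genes with an early change within 2-fold sit near 0 on the x axis, above and below, while the 70 that had changed in the same direction lie mostly at the upper right.

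A direct test of the late minus the early step called 15 genes (0.100%), and all 15 had a late step below the early one. Of these, 5 had a symbol: Kcnh1, Cd55, Ric3, Tmem132b and Ctxn3. Several of those without a symbol, ENSRNOG00000028707 and ENSRNOG00000030093 among them, had a median of 0 CPM at 18 months. Their calls rested on few high rats of that age, so the shared direction of the 15 is in part theirs. No gene was at once regulated late, bounded early and called by this direct test in edgeR. At an unadjusted p under 0.05 the direct test passed 1288 genes. DESeq2 placed 3 genes in that strict class, Llgl2, Trpm1 and Abcc8, all falls, and leaving out rat 20 placed 5, Llgl2, Barx2, Trpm1, Abcc8 and Unc5a. Leaving out rat 47 placed 3, Llgl2, Trpm1 and Unc5a. The 132 genes are therefore described below as genes whose early change was bounded within 2-fold, and a difference between their steps was shown for none of them by edgeR. Without rats 14 and 17 the class held 79 genes.

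Genes of the fast contractile apparatus and of membrane excitation fell in the late step. Of 21 with a symbol, 18 were lower, 4 by more than 2-fold, and none was higher (16 lower and 2 higher with library totals), with a median log2 fold change of -0.76 in the late step against -0.18 in the early step, where 1 was higher and 1 lower. The direct test between the steps called none of the 21, and the median of late minus early was -0.50. The largest falls were in Mybpc2, the fast isoform of myosin-binding protein C, and in Mylk2, the skeletal muscle kinase that phosphorylates myosin light chain.

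Mybpc2 ranged from 2092 to 6705 CPM at 18 months, with a median of 4024, and from 495 to 2442 CPM at 24 months, with a median of 1846. Of the 9 sarcopenic rats 7 lay below every early sarcopenic rat. Rat 41 was lowest and rat 47 highest at 24 months, and rat 15 was lowest at 18 months. The fold change was 2.45-fold lower (log2 -1.29, SE 0.22, adjusted p = 4.77e-05), after a change of -0.13 (SE 0.21, adjusted p = 0.809) in the early step. Mylk2 was at 1068 ± 422 CPM (SD, n = 10) at 18 months and 435 ± 105 CPM (SD, n = 9) at 24 months, and 8 of 9 sarcopenic rats lay below the 18-month range. On the log2 scale the change came to -1.29 (SE 0.18, adjusted p = 5.71e-06), and its early change of -0.54 just missed the threshold (adjusted p = 0.0520). The other 2 members that fell over 2-fold were Actn3, the alpha-actinin of fast fibres (log2 -1.20, SE 0.22, adjusted p = 1.31e-04), and Atp2a1, the calcium pump that refills the reticulum of fast fibres (log2 -1.07, SE 0.18, adjusted p = 4.57e-05). Members that fell less than 2-fold included Scn4a, the sodium channel of the muscle membrane (-0.76), Clcn1, its chloride channel (-0.85), and Cacna1s, the voltage sensor of excitation-contraction coupling (-0.71). Cacnb1 (0.15), Tmod1 (0.04) and Kcnc4 (-0.32) did not pass.

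Glycolysis and glycogen genes fell together with them. Of 22 with a symbol, 19 were lower, 9 of them by more than 2-fold, and none was higher (18 lower and 1 higher with library totals). The late median was -0.90 against -0.26 in the early step, in which 2 (Pfkfb1 and Ugp2) were lower. All 9 were among the 132 genes with a bounded early change: Gpd1, Phka1, Slc16a3, Phkg1, Pygm, Fbp2, Pfkm, Gpi and Aldoa. Of all 81 regulated falls with a symbol, 60 were in that class (2.77% of the genes with a symbol), so membership is not particular to this list. The direct test between the steps called none of the 22, with a median of late minus early of -0.65. Members that missed the late threshold were Hk2 (-0.31), Pfkfb2 (-0.23) and Phka2 (0.71).

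Gpd1, the cytosolic glycerol-3-phosphate dehydrogenase that hands electrons from glycolysis to mitochondria, had a median of 904 CPM at 18 months (268 to 1284) and 268 CPM at 24 months (67.3 to 626). The ranges overlapped, with rat 20 lowest at 18 and rat 47 highest at 24 months, and 5 of 9 sarcopenic rats lay below the 18-month range. The late log2 fold change was -1.44 (SE 0.24, adjusted p = 3.74e-05) after -0.38 in the early step (SE 0.23, adjusted p = 0.381). Phka1, the muscle alpha subunit of phosphorylase kinase, which starts glycogen breakdown, went from a median of 571 CPM (303 to 1031) to 240.4 CPM (84.3 to 339). Rat 47 alone reached into the 18-month range. The late change was log2 -1.35 (SE 0.19, adjusted p = 5.71e-06) and the early one -0.22 (SE 0.18, adjusted p = 0.551). The catalytic subunit Phkg1 fell by 1.27, the muscle glycogen phosphorylase Pygm by 1.15 and the lactate exporter Slc16a3 by 1.32. Reads of Aldoa can be shared with its near copy Aldoart2, so its value is uncertain.

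**Figure D2:**
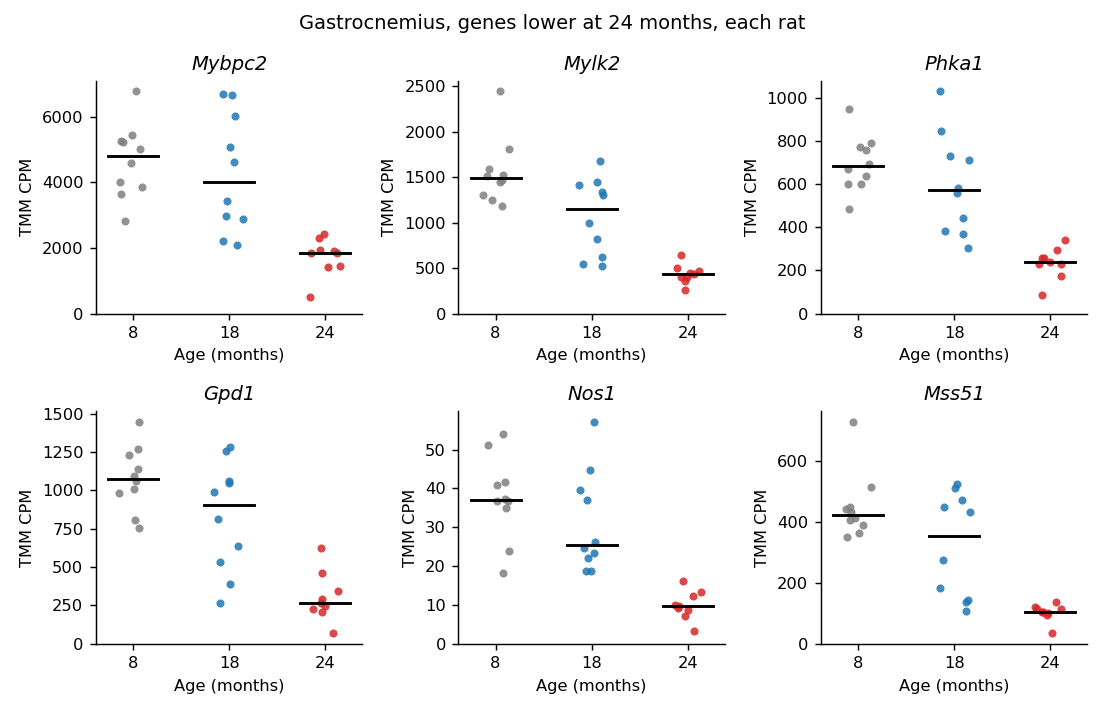
CPM (y axes) of 6 genes that fell in the late step in each gastrocnemius library at 8, 18 and 24 months (x axes), 1 point per rat with bars at the median. For Nos1 the 24-month rats all lie below the 18-month rats, and for Mybpc2, Mylk2, Phka1, Gpd1 and Mss51 most do, with rat 47 the highest at 24 months in each.

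Promoters of the falling genes were read from RefSeq on GRCr8, 250 bases before to 50 after the start, given on the strand of the gene, and searched for CAGCTG, an E-box that myogenic bHLH factors can bind and that reads alike on both strands. The general E-box CANNTG, which includes CAGCTG, was searched too. Of the class with a bounded early change, 41 falling and 14 rising genes matched an entry. CAGCTG was in 12 of 41 falling genes (29.3%), in 0 of 14 rising genes (0%) and in 15.1% of all 33469 promoters, and CANNTG was in 70.7%, 50.0% and 72.1%. The 33469 are all RefSeq promoters, whether or not the gene is expressed in muscle. The share among muscle-expressed genes was not taken, so these values do not tie CAGCTG to the falls. The 4 promoters printed were chosen after the values were seen, to show a glycogen enzyme with a pair of matches, 2 fast-fibre genes with and without one, and Mss51. Matched letters are in capitals. They lie at chr1:213119555-213119854 on the + strand (Pygm), chr1:190475361-190475660 on the - strand (Atp2a1), chr1:211604352-211604651 on the - strand (Actn3) and chr15:3856494-3856793 on the + strand (Mss51).
Pygm: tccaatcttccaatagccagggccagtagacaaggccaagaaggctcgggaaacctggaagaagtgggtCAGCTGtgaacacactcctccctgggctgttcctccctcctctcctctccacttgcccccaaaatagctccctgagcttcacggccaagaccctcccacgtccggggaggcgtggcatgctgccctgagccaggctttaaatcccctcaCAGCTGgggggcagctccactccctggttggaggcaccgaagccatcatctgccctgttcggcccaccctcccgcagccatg
Atp2a1: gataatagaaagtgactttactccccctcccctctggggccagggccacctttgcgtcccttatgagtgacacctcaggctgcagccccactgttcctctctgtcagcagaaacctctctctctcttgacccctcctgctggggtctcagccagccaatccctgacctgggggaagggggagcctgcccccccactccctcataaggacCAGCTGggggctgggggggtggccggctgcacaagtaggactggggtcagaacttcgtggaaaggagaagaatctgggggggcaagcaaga
Actn3: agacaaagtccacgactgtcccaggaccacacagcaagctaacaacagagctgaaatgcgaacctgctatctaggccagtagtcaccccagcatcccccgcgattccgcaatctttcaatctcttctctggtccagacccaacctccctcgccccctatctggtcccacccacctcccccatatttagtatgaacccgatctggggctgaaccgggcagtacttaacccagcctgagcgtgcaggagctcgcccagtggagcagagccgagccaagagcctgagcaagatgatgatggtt
Mss51: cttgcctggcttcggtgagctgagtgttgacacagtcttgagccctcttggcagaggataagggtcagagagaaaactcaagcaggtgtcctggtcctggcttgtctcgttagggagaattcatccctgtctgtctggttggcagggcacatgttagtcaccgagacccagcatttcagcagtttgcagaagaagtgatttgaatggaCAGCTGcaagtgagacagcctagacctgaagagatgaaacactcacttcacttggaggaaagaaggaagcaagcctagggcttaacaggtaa
In Pygm the matches start at bases 70 and 219 of the window, in Atp2a1 at base 210 and in Mss51 at base 209. Actn3 holds neither motif in this window. A match is a description of these letters and not a site of binding.

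In the bounded class Nos1, Mss51, Trpm1, Unc5a, Pla2g2c and Ush1c fell further than any member of the fast-fibre and glycolysis lists. Nos1, the neuronal nitric oxide synthase that sits under the muscle membrane, was at 18.6 to 57.2 CPM at 18 months (median 25.4) and at 3.20 to 16.3 CPM at 24 months (median 9.83). The groups did not overlap, a property of 11 genes (0.0736%) of all tested. The fall was 3.15-fold (log2 -1.65, SE 0.25, adjusted p = 8.47e-06) after an early change of -0.27 (SE 0.23, adjusted p = 0.583). Abcc8, the sulfonylurea receptor of ATP-sensitive potassium channels, did not overlap either, with 14.3 to 28.3 CPM at 18 and 7.76 to 13.2 CPM at 24 months. It fell by 1.03 (SE 0.15, adjusted p = 8.20e-06) after 0.04 in the early step, and its late minus early step was -1.06 (adjusted p = 0.0746).

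Mss51, a muscle protein with a zinc finger, went from a median of 353 CPM (107 to 524) to 105 CPM (36.2 to 138), with 5 of 9 sarcopenic rats below the 18-month range. It fell by 1.66 (SE 0.23, adjusted p = 5.71e-06) after -0.47 (SE 0.22, adjusted p = 0.219). Trpm1, a cation channel of the TRP family, fell by 1.75 (SE 0.25, adjusted p = 5.71e-06) from a median of 3.08 to 1.09 CPM after -0.07 in the early step. The test between its steps gave -1.68 (adjusted p = 0.0650). The netrin receptor Unc5a fell by 1.61 (means of 5.51 and 1.84 CPM) and the secreted phospholipase Pla2g2c by 1.68 (means of 4.54 and 1.40 CPM). The scaffold Ush1c fell by 1.55 (means of 4.08 and 1.39 CPM). Of the 9 sarcopenic rats, 6 lay below the 18-month range for Unc5a, 3 for Pla2g2c and 0 for Ush1c. The early changes of Unc5a (0.04), Pla2g2c (-0.13) and Ush1c (0.00) were near 0.

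Of the 5 genes with a symbol that the test between the steps called, 4 fell in the late step. Kcnh1, a voltage-gated potassium channel, had medians of 5.66, 7.98 and 2.25 CPM at 8, 18 and 24 months. Its late fall of 2.06 (SE 0.34, adjusted p = 2.61e-05) followed an early change of 0.47 (SE 0.31, adjusted p = 0.436), with a difference of -2.53 (SE 0.53, adjusted p = 0.0184). Only rat 47 of the sarcopenic rats reached the 18-month range of 3.23 to 15.2 CPM. Cd55, which shields cells from complement, had medians of 95.4, 101 and 55.5 CPM and a fall under 2-fold (log2 -0.87, SE 0.12, adjusted p = 5.71e-06), with a difference between the steps of -0.91 (adjusted p = 0.0497). Ric3, a chaperone of nicotinic acetylcholine receptors, rose from a median of 2.74 to 4.36 CPM in the early step (0.62, SE 0.16, adjusted p = 0.0144). It then fell to between 1.93 and 3.29 CPM in the late step (-0.81, SE 0.17, adjusted p = 4.07e-04), so that its steps differed by -1.44 (adjusted p = 0.00796). Tmem132b had medians of 0.877, 1.73 and 0.283 CPM, and a difference of -3.20 (SE 0.71, adjusted p = 0.0322). The fifth, Ctxn3, rose by 3.75 in the early step, and its late change of 0.77 missed the threshold (adjusted p = 0.0799).

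The other large falls were Ubxn10 (log2 -2.19, SE 0.37), Fanca of the Fanconi DNA repair complex (-1.96, SE 0.44), and Sema7a, a membrane-bound semaphorin (-1.84, SE 0.30). Ubxn10 went from a median of 3.78 CPM (0.760 to 13.7) to 0.808 CPM (0.611 to 1.71), and Sema7a from 82.8 CPM (23.2 to 191) to 25.8 CPM (18.5 to 46.7). Fanca varied widely at 18 months (1.08 to 14.5 CPM), and only 1 sarcopenic rat lay below that range.

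Of the 48 rises with a bounded early change, 24 had a symbol. Those named here are the 10 largest with a RefSeq symbol and a mean of at least 1 CPM at 18 or 24 months, and larger rises, such as Armchx2 (1.44), Shcbp1 (1.42) and Wisp1 (1.33), lay outside these limits. Fbn2 (means of 0.78 and 1.67 CPM) and Ftl1l1 (means of 0.59 and 1.41 CPM) met the limit of 1 CPM only at 24 months, where they were high. Cntn2, a contactin of axons and their sheaths, had a median of 6.29 CPM at 18 months (3.75 to 9.94) and 12.6 CPM at 24 months (5.36 to 26.4), and 7 of 9 sarcopenic rats lay above the 18-month range. It rose by 1.32 (SE 0.23, adjusted p = 4.58e-05) after 0.48 (SE 0.23, adjusted p = 0.228), and the nerve marker Cnp was higher as well, a part that was not tested. Itga9, an integrin alpha subunit, rose by 1.14 (SE 0.22, adjusted p = 1.82e-04), the matrix protein Spon1 by 1.12 (SE 0.25, adjusted p = 8.92e-04) and the fibrillin Fbn2 by 1.09 (SE 0.32, adjusted p = 0.0114).

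Igsf10, of the immunoglobulin superfamily, went from a median of 4.67 CPM (2.21 to 11.3) to 12.6 CPM (8.29 to 22.1). The overlap came from a single high early sarcopenic rat, rat 12. It rose by 1.26 (SE 0.23, adjusted p = 1.05e-04) after 0.42 (SE 0.23, adjusted p = 0.320). Vopp1 went from 8.43 CPM (4.06 to 17.5) to 20.9 CPM (11.8 to 23.4), with rat 20 highest at 18 months, and rose by 1.13 (SE 0.19, adjusted p = 3.06e-05) after 0.16. Lrrn1, a leucine-rich repeat membrane protein, rose by 1.29 (SE 0.31, adjusted p = 0.00190). Myf5, a myogenic transcription factor of satellite cells, rose by 1.21 (SE 0.24, adjusted p = 2.36e-04), from a median of 4.04 to 9.03 CPM, and 5 of 9 sarcopenic rats lay above the 18-month range. The interferon-induced Ifitm1 rose by 1.16 and the ferritin light chain copy Ftl1l1 by 1.23, but both have near-identical relatives, so their reads may be shared.

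**Figure D3:**
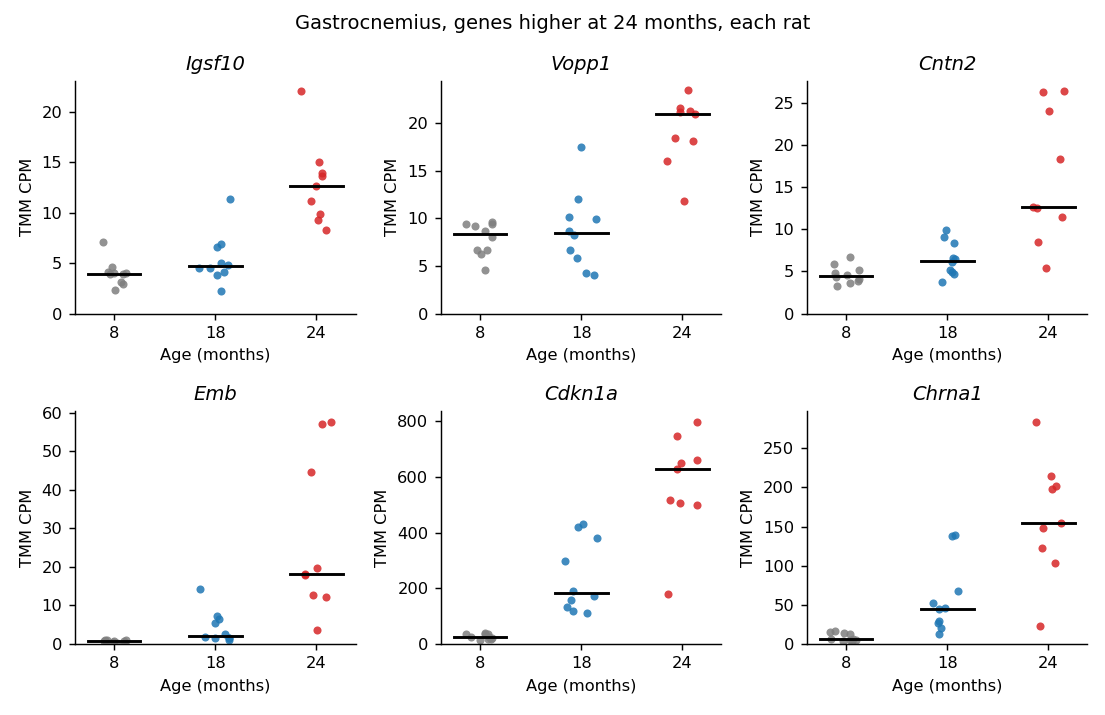
CPM (y axes) of 6 genes that rose in the late step in each gastrocnemius library at 8, 18 and 24 months (x axes), 1 point per rat with bars at the median. For Igsf10, Vopp1 and Cntn2 the change from 8 to 18 months missed the test (medians of 4.42 and 6.29 CPM for Cntn2), whereas Emb, Cdkn1a and Chrna1 had already risen, with rat 11 highest at 18 months for Cdkn1a, rat 20 for Emb and Chrna1, and rat 47 lowest at 24 months for all 3.

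The 10 largest named rises of the late step were taken among genes with a mean of at least 1 CPM at 18 or 24 months, and several, Chrna4 and Acot6 among them, met this limit only at 24 months, where they were high. The early change of Chrna4 missed the test (adjusted p = 0.105). Emb, embigin, a membrane glycoprotein known to promote sprouting of motor nerve terminals, had a median of 0.776 CPM at 8, 2.06 CPM at 18 (0.891 to 14.3) and 18.2 CPM at 24 months (3.48 to 57.5). Of the sarcopenic rats 6 lay above the 18-month range, and rat 20 was the highest at 18 months. It rose 6.28-fold in the late step (log2 2.65, SE 0.41, adjusted p = 1.18e-05) after 2.74 in the early step (SE 0.48, adjusted p = 1.15e-04), and the 2 steps differed by -0.09 (95% interval -1.44 to 1.26). Myo5b, an unconventional myosin that moves vesicles, rose by 2.65 (SE 0.41, adjusted p = 1.08e-05) from a median of 0.509 to 2.54 CPM. Krt18, a keratin, went from 0.0220 CPM at 8 to 2.28 at 18 and 12.0 CPM at 24 months in medians, and rose by 2.16 (SE 0.40, adjusted p = 1.23e-04) in the late step. Tp73, a relative of p53, and Acot6, an acyl-CoA thioesterase, had a median of 0 CPM at 8 months and rose in the late step to medians of 2.96 and 1.06 CPM. The cardiac and developmental troponin Tnnt2 rose by 1.91 (SE 0.48, adjusted p = 0.00322), where rat 41 (63.7 CPM) stood above the others, and the collagen Col19a1 by 1.90 (SE 0.36, adjusted p = 1.33e-04). Tac4 (1.99), the receptor subunit Chrna4 (1.92) and the synaptotagmin Syt11 (1.89) also rose, from medians under 1 CPM at 18 months.

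Some genes of the synapse and of denervated muscle passed the test in both steps. With TMM scaling more members of these lists passed in the early step. The direct test between the steps called no member of either list. Of the 5 neuromuscular junction genes with a symbol, 3 rose late and 4 early, with medians of 0.69 and 1.21. With library totals all 5 rose late. Chrna1, the alpha subunit of the muscle acetylcholine receptor, had medians of 6.51, 44.8 (13.0 to 139) and 155 CPM (22.9 to 283). It rose by 1.48 (SE 0.40, adjusted p = 0.00656) after 2.71 (SE 0.42, adjusted p = 1.61e-05), and the steps differed by -1.23 (95% interval -2.58 to 0.12). Musk, the receptor kinase that gathers these receptors, rose by 0.69 (SE 0.24, adjusted p = 0.0354) after 2.14, a call lost with any 1 of 9 of the 19 rats left out (the largest adjusted p was 0.0813, without rat 18). The neuregulin receptor subunit Erbb2 rose by 1.46 (SE 0.25, adjusted p = 5.20e-05) after 1.21. Chrne (0.57, adjusted p = 0.135) and Chrnb1 (0.06, adjusted p = 0.724) missed the late threshold.

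Of the 16 denervation genes with a symbol, 7 rose late and 3 fell, against 10 and 1 early, and the medians were 0.84 and 1.35. The late counts moved to 12 and 1 with library totals, 9 and 1 with upper quartile factors and 11 and 3 with limma voom. The growth arrest gene Cdkn1a, which encodes p21, had medians of 25.1, 181 (109 to 432) and 628 CPM (180.2 to 798). Rat 47 lay inside the 18-month range and the other 8 sarcopenic rats above it. The late change was 1.26 (SE 0.31, adjusted p = 0.00246) after 3.19 (SE 0.32, adjusted p = 6.09e-10). The p53 and cell cycle arrest list, which shares Cdkn1a and Gadd45a with the denervation list, had 8 of 16 higher and 1, Sesn1, lower late, with medians of 0.63 late and 1.12 early. With library totals 14 were higher and 0 lower, and both with limma voom and without rats 14 and 17 there were 12 higher and 1 lower. Ankrd1, a stress-responsive ankyrin protein, went from a median of 89.9 to 462 CPM, but its late change of 1.24 (SE 0.52) missed the threshold (adjusted p = 0.0800), with rat 20 at 679.9 CPM at 18 months.

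Of the matrix, immune and developmental lists most members rose in the late step, and of the mitotic list 24 of 55 did. Of 31 extracellular matrix genes, 21 rose and 1, P4ha1, fell, with a median of 0.59 against 0.30 early, where 6 rose. Postn, periostin, a matrix protein of activated fibroblasts, had medians of 81.1 CPM at 18 (31.5 to 233) and 302 CPM at 24 months (107 to 546), with 6 of 9 sarcopenic rats above the 18-month range. It rose by 1.72 (SE 0.35, adjusted p = 3.61e-04) after 1.13 (SE 0.34, adjusted p = 0.0394). The collagen VI chains rose less, by 0.55 (Col6a1), 0.49 (Col6a2) and 0.65 (Col6a3), and Col1a1 (0.57) and Col3a1 (0.59) did not pass. The fibroblast marker sums given above were higher as well, but Postn, Col1a1 and Col3a1 belong to both lists. The part of fibroblasts was not tested. Without rats 14 and 17 the matrix genes that rose were 14.

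Among the 55 mitosis and DNA replication genes, 16 of the 24 rises were over 2-fold, 30 members did not pass and 1, the separase Espl1, fell, against 2 rises early. The list's medians were 0.78 late and 0.53 early, and most members were low, as the spindle motor Kif11 went from a median of 0.649 to 1.19 CPM (log2 1.12, SE 0.30, adjusted p = 0.00645). Espl1 went the other way, from 12.1 CPM (4.89 to 19.7) to 4.13 CPM (2.14 to 7.09). Without rats 14 and 17 the rises were 13 and with library totals in place of TMM 44. Of 11 developmental genes 9 rose, with Igf2, the fetal insulin-like growth factor, from a mean of 122 to 369 CPM (log2 1.59, adjusted p = 5.71e-06).

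Of 25 immune genes 17 rose late, against 12 early, with medians of 0.56 and 0.68. The leukocyte and lymphocyte marker sums given above were higher too, but they are no separate evidence. All the leukocyte markers and the lymphocyte markers Cd28, Cd8b, Foxp3 and Ighm belong to this list. Cd28, the T cell costimulatory receptor, went from a median of 3.06 CPM (0.902 to 6.75) to 11.7 CPM (6.58 to 17.2), a rise of 1.55 (SE 0.27, adjusted p = 7.25e-05) after 1.86. Foxp3, the factor of regulatory T cells, fell by 1.62 (SE 0.32, adjusted p = 2.69e-04), from a median of 1.45 to 0.562 CPM. It had a median of 2.35 CPM at 8 months. The RT1 genes of antigen presentation are near copies of each other and their split is uncertain.

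Medians of the mitochondrial lists were close in both steps. Of 38 oxidative phosphorylation genes 13 were lower late, none by more than 2-fold, with medians of -0.33 late and -0.30 early, and the median of late minus early was -0.02. Ndufs7, a complex I subunit, fell by 0.56 (SE 0.15, adjusted p = 0.00659), and rat 47 was the highest sarcopenic rat (346 CPM, median 168). This count moved with the setting, to 5 with gastrocnemius libraries alone, 2 with library totals and 25 with limma voom. Of 42 genes of the tricarboxylic acid cycle and fatty acid oxidation 14 were lower, or 8 with library totals (medians -0.28 late, -0.29 early). The largest falls there were the lipid droplet protein Plin4 (-0.99, SE 0.16, adjusted p = 1.74e-05) and Perm1, a regulator of mitochondrial genes in muscle (-0.90, SE 0.24, adjusted p = 0.00568). In the early step no member of either mitochondrial list passed. Among all genes with a symbol 39.9% were lower late, so the counts of 13 and 14 do not stand above that share.

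Protein breakdown genes split. Of 32, 9 rose and 17 fell (median -0.41 late, 0.00 early), and with library totals the split was 13 and 12. The falls included ubiquitin ligase subunits of the Asb family, Asb2 (-1.15, SE 0.25, adjusted p = 7.80e-04) and Asb4 (-1.06, SE 0.22, adjusted p = 4.52e-04), and Fbxo40 (-0.67), while the cathepsins Ctsb (0.50), Ctsh (0.46) and Ctsk (0.81) rose. Of 19 genes of amino acid metabolism, ATF4 and endoplasmic reticulum stress 9 fell and 1 rose, and with library totals 1 fell and 2 rose. The alanine aminotransferase Gpt2 fell by 1.26 (SE 0.23, adjusted p = 1.03e-04), while the chaperone cofactor Sil1 rose by 0.68. Of 4 polyamine genes none rose (3 with library totals, 2 without rats 14 and 17), Amd1 fell (-0.52, SE 0.09, adjusted p = 7.19e-05) and Sat1 missed the threshold (0.50, adjusted p = 0.0918). Of 5 sterol genes Msmo1 rose (0.34) and Fdft1 fell (-0.30, adjusted p = 0.0317), but the call of Fdft1 was lost with upper quartile factors (adjusted p = 0.0604), with library totals (-0.06, adjusted p = 0.597) and with any 1 of 7 rats left out (at most 0.0808, without rat 19). Of 26 secreted factors 9 rose and 5 fell, a split of 14 and 2 with library totals and 9 and 2 with upper quartile factors, with Draxin, an axon guidance protein, up by 1.86 (SE 0.41, adjusted p = 9.70e-04) from a median of 0.244 to 1.27 CPM.

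**Figure D4:**
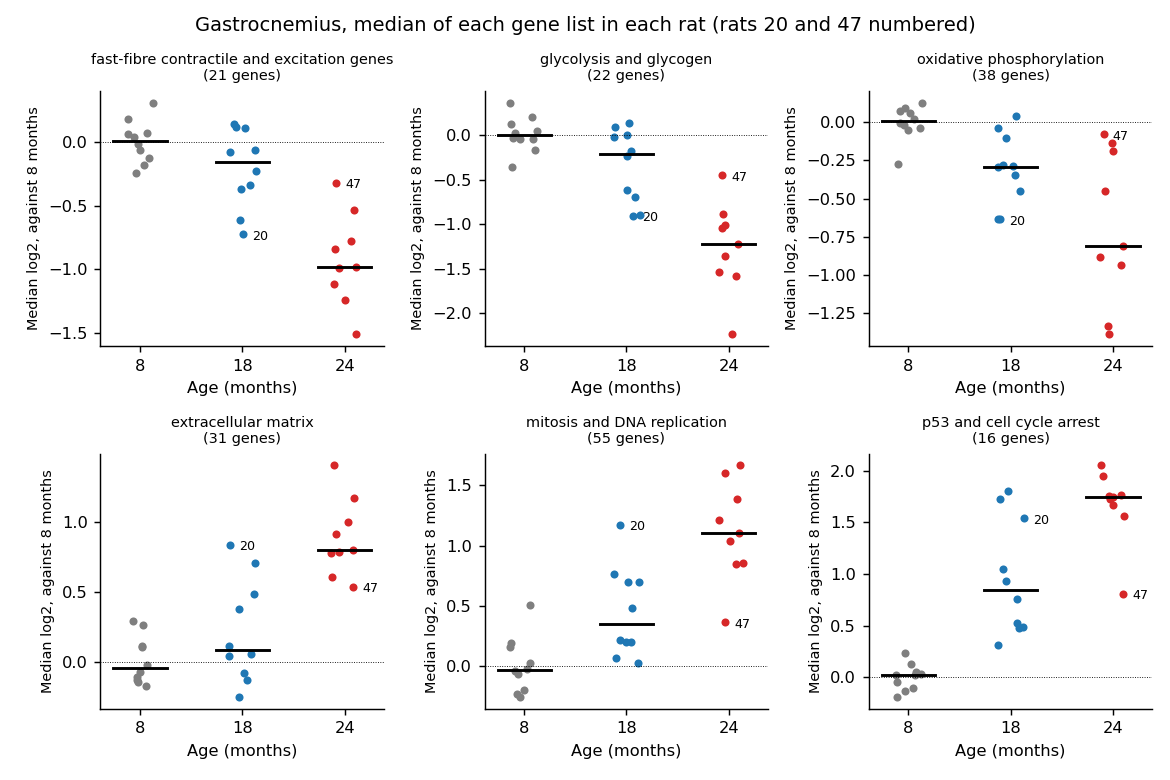
Median log2 level of the members of 6 lists in each rat, relative to the 8-month mean (y axes), at 8, 18 and 24 months (x axes), 1 point per rat with rats 20 and 47 numbered. In the fast-fibre and glycolysis panels rat 20 is the lowest at 18 months (-0.73 and -0.90) and rat 47 the highest at 24 months (-0.32 and -0.45), while the other sarcopenic rats reach down to -1.51 and -2.24.

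The list medians by rat show the same order of rats. For glycolysis the early sarcopenic rats ran from -0.90 (rat 20) to 0.14 (rat 19), with a median of -0.21, and the sarcopenic rats from -2.24 (rat 41) to -0.45 (rat 47), with a median of -1.22. For mitosis they ran from 0.02 to 1.17 at 18 months, where rat 20 was highest, and from 0.36 (rat 47) to 1.67 (rat 41) at 24 months. The groups overlapped in both lists. These values describe the lists and carry no test.

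In triceps brachii of the same rats fewer genes were called in the late step. At an adjusted p under 0.05, 29 genes were called (0.194%), 22 of them over 2-fold, and 2246 passed at an unadjusted p under 0.05. Of the 132 genes with a bounded early change in gastrocnemius, 0 were called in triceps, which at that share of calls says nothing of them. The same sign in triceps as in gastrocnemius was seen in 122, but the share over all genes was not taken. For 85 of the 132 the late step differed between the muscles at an unadjusted p under 0.05, against 1827 of all 14947 genes, by the direct test given below. The class was chosen on its change in gastrocnemius, so neither count is a trait of it. The fast-fibre and glycolysis medians there were -0.30 and -0.31, and no list member passed. Nos1 went from 43.0 ± 11.2 (SD, n = 10) to 33.3 ± 11.5 CPM (SD, n = 9) in triceps (log2 -0.37, past no threshold) and Emb from 0.906 ± 0.454 to 1.49 ± 1.31 CPM (0.77, adjusted p = 0.448).

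A direct test of the late step between the muscles, with the rat as a block, called 0 genes (0%) in edgeR, and 1827 passed at an unadjusted p under 0.05. DESeq2 called 163 genes and limma voom 4. Without rat 47 edgeR called 139 and without rat 20 it called 123. For Nos1 the triceps log2 change lay above that of gastrocnemius by 1.23 (adjusted p = 0.0729), for Plin4 by 0.95 (adjusted p = 0.0729) and for Mybpc2 by 0.69 (adjusted p = 0.351). A difference between the muscles in the late step was thus not shown for any single gene by edgeR with all rats.

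**Figure D5:**
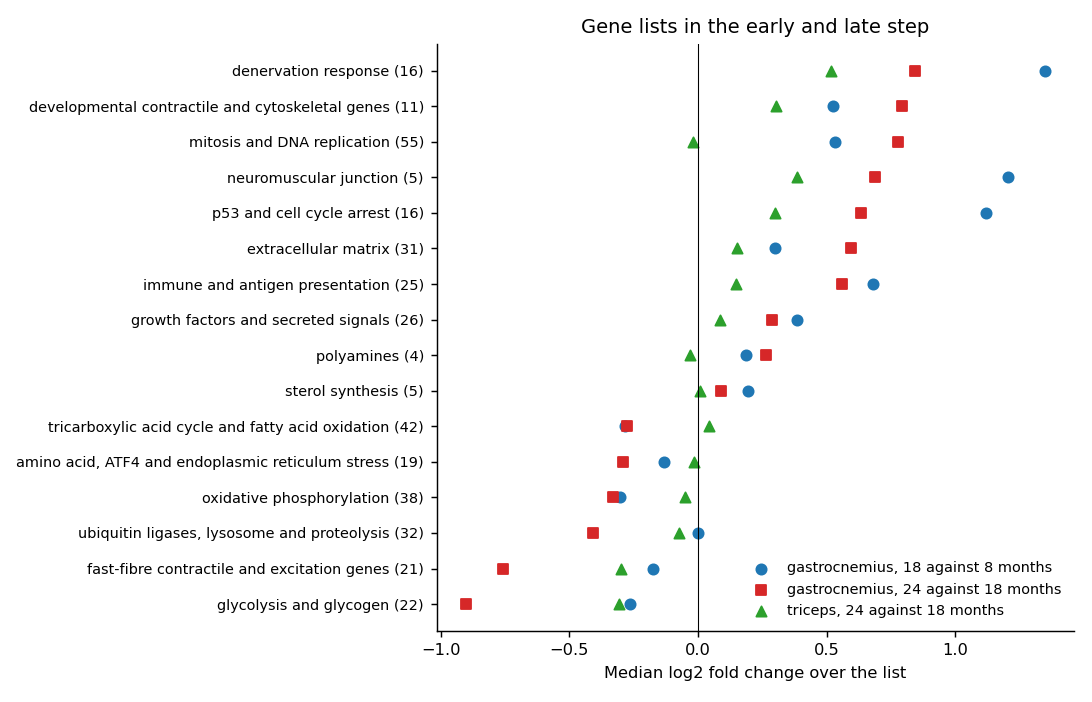
Median log2 fold change of the members of 16 lists (y axis) in the early step in gastrocnemius, the late step in gastrocnemius and the late step in triceps brachii (x axis, log2). The fast-fibre and glycolysis lists lie at -0.18 and -0.26 early and at -0.76 and -0.90 late in gastrocnemius, and the oxidative phosphorylation list at -0.30 and -0.33.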

How the data were processed

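Gastrocnemius and triceps brachii of 29 rats were sequenced by the study. Per the labels and the study's methods, the authors used CASAVA 1.8, aligned reads with STAR 2.3.0e to Rnor_6.0, dropped poorly mapped reads with samtools and made gene counts with HTSeq (union). These deposited counts are whole reads per Ensembl gene and were not normalized. The strand option and the Ensembl release are not given in the sources used here, so values of overlapping genes are uncertain.

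Counts were fitted in R 4.3.3 with edgeR 4.0.16 (glmQLFit and glmQLFTest) over all 58 libraries, with 1 mean per muscle and age and TMM factors, for genes that reached 20 reads in some library, and p-values were adjusted by Benjamini and Hochberg. Regulated means an adjusted p under 0.05 and a change over 2-fold. The test between the muscles had the rat as a block. DESeq2 1.42.0, limma 3.58.1 (voom), other factors, filters and left-out rats were alternatives. The fits were tested on simulated data. No pair of libraries of an age was alike within counting error (chi-square per degree of freedom of 24.5 to 302), so none was counted as 1 library deposited again. The spread between rats includes that of library preparation.

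The members, lists and rules were chosen with earlier results of these data known. Symbols came from a supplementary gene list of the study, and 1856 of them could be matched to a RefSeq symbol. Named were genes with a RefSeq symbol and a mean of at least 1 CPM at 18 or 24 months whose direction held whichever rat was left out: the 10 largest rises and 8 largest falls among regulated genes, the 5 largest with the same direction in both steps and up to 3 with opposite ones, the 2 largest of each list, and Chrna1, Musk, Chrnb1 and Chrne. The part of the rule on genes of the late step alone found none, so 10 rises and 6 falls of the class with a bounded early change were added after the values were seen, with Kcnh1, Cd55, Ric3 and Tmem132b. Further list members, Cnp, Armchx2, Shcbp1, Wisp1, Abcc8, Llgl2, Barx2 and Ctxn3 were also named after the values were seen. Promoters were taken by symbol from RefSeq on GRCr8. Their search had been planned for the largest rises of the late step alone. With none found, it was run on the bounded class after the values were seen.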

Additional observations from a re-analysis of the deposited data

Results flagged for a closer look

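In 16 of 132 groups of one gene at one age (12.1%) the highest or lowest rat stood apart from the others by Dixon's test on CPM. Chance flags about 1 in 20 for normal values in independent groups. CPM need not be normal and the groups share rats, so the share is not shown to exceed chance. Rat 47 of 24 months stood apart in 5. It was low for Cdkn1a (180.2 CPM, next rat 498 CPM), and high for Amd1 (58.6 CPM), Foxp3 (1.46 CPM), Trpm1 (2.28 CPM) and Unc5a (3.86 CPM), in each case toward the 18-month level. Rat 41 of 24 months was high for Myf5 (21.7 CPM) and Tnnt2 (63.7 CPM) and low for Mss51 (36.2 CPM).

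Rat 20 of 18 months was high for Emb (14.3 CPM) and Myo5b (2.23 CPM, next rat 0.617 CPM). Rat 12 of 18 months was high for Igsf10 (11.3 CPM) and Fbn2 (1.70 CPM), rat 14 for Chrne (28.4 CPM) and rat 15 for Tac4 (2.72 CPM). Rat 50 of 24 months was high for Igsf10 (22.1 CPM) and rat 42 for ENSRNOG00000048273 (357 CPM, next rat 88.5 CPM). The cause was not tested for any of them.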

How the results depend on the processing

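Of 2574 single-gene results recomputed, 2537 kept their direction and side of the threshold, 14 gained and 23 lost the threshold, and none changed direction. The 401 genes regulated late became 714 with library totals in place of TMM, where the median of all genes moved to 0.26 and 88.9% of calls were rises (635 rises, 79 falls) against 65.1% with TMM and 70.3% with upper quartile factors. With no limit on the fold the late step held 3109 genes and the early step 693, and with limma voom the early step held 129 against 235 with edgeR. The test between the steps called 15 genes, 0 with limma voom (1190 at an unadjusted p under 0.05), 9 with filterByExpr, 5 with gastrocnemius libraries alone and 6 without rats 14 and 17. The strict class of the late step alone held 0 genes, 3 with DESeq2, 1 with the replicate block, 1 with no limit on the fold, 4 without the limit on the early interval and 132 without the test between the steps, and these 132 were 79 without rats 14 and 17. In triceps the 22 genes became 34 with DESeq2, 0 with limma voom, 12 with RLE and 12 with upper quartile factors, 11 with filterByExpr, 10 with no filter, 8 with the replicate block and 53 without rats 14 and 17. The difference between the muscles called 0 genes, 163 with DESeq2, 4 with limma voom and 3 without rats 14 and 17.

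With single rats left out, the late count ran from 297 (without rat 41) to 506 (without rat 20), the early count from 176 to 254, the test between the steps from 6 (without rat 13) to 29 (without rat 20), the strict class from 0 to 5, the bounded class from 96 (without rat 41) to 190 (without rat 20), the triceps count from 3 (without rat 12) to 59 (without rat 17), the muscle difference from 0 to 139 (without rat 47), and the named genes that passed, 58 with all rats, from 56 to 60. The cause was not tested.

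Rats of different ages share only a replicate number: over 9 numbers the correlation of their deviations averaged 0.0481, 3 numbers exceeded 0.1, and no rat of 24 months correlated best with its own number. With the replicate block the late count was 464, the early count 199, the bounded class 150, the test between the steps 14 and the named genes that passed 59.

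The median standard error was 0.23 for late minus early against 0.13 for the late step. The early sarcopenic libraries enter both steps, so the difference between steps has the larger standard error whatever the spread between rats. The values therefore do not show how far that spread limits the test between the steps.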

Other observations

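Of 401 regulated genes, 187 had no symbol. The largest rises among those with a mean of at least 1 CPM were ENSRNOG00000043451, from a median of 1.83 CPM (0.166 to 4.79) to 6.24 CPM (1.89 to 41.3), a log2 difference of 2.65 (SE 0.67, adjusted p = 0.00352), and ENSRNOG00000048273, from 7.27 CPM (4.29 to 38.3) to 13.3 CPM (2.85 to 357), with 2.26 (SE 0.60, adjusted p = 0.00524), or 1.01 at the lowest with 1 rat left out, where the largest adjusted p was 0.183. The largest falls were ENSRNOG00000008199, from 2.68 CPM (0 to 5.19) to 0.243 CPM (0.0526 to 0.687), with -2.86 (SE 0.75, adjusted p = 0.00453), and ENSRNOG00000011323, from 6.61 CPM (0.252 to 16.1) to 1.56 CPM (0.237 to 3.24), with -2.17 (SE 0.50, adjusted p = 0.00159).

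Among the 11 genes whose 18-month and 24-month rats did not overlap, Pip5k1a, a kinase that makes phosphatidylinositol bisphosphate, fell by less than 2-fold, from 64.5 to 79.3 CPM at 18 months to 47.6 to 62.9 CPM at 24 months (log2 -0.34, SE 0.08, adjusted p = 0.00128). Ttc8, a subunit of the BBSome of cilia, was at 1.38 to 2.82 CPM and 3.17 to 4.08 CPM (0.81, SE 0.17, adjusted p = 4.29e-04). Both are named after their values were seen.

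Several genes called between the steps rested on a single early sarcopenic rat: ENSRNOG00000028707 was at 8.97 CPM in 1 rat of 18 months, at 0.708 CPM in the next, and had a median of 0.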
